A study of Mus musculus with 20 samples.

Results

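Open chromatin of Idh2 R172K and Tet2 knockout mouse blood progenitors was compared directly, with 4 libraries of each genotype out of 20 libraries in the series. All peaks of the deposited count table entered, and the libraries were chosen by genotype alone. The cells were LSK cells (lineage-negative, c-Kit-positive, Sca-1-positive), the bone marrow fraction that holds stem cells and multipotent progenitors. The assay was ATAC-seq, in which a transposase cuts open DNA and loads it with sequencing adapters. Each library came from a pool of 2 mice of strain C57Bl/6J, aged 3 to 4 months, and no treatment is named. The Idh2 R172K mice had the genotype Idh2LSL-R172K/+;Vav-Cre. They therefore carried 1 mutant allele at the gene's own locus that Cre switches on, and Cre under the Vav promoter, which acts in blood cells. The Tet2 knockout mice were labelled Tet2-/-. Their label names no Cre and does not say which part of the gene was deleted, so the presence of Vav-Cre and the Idh2 allele cannot be told apart by this comparison alone. The other genotypes, quoted as reference levels, were +/+ with Vav-Cre (WT), Idh1LSL-R132H/+;Vav-Cre and Idh2LSL-R140Q/+;Vav-Cre.

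Idh2 is the mitochondrial isocitrate dehydrogenase, which turns isocitrate into 2-oxoglutarate. The leukaemia-associated R172K enzyme reduces 2-oxoglutarate to 2-hydroxyglutarate, a competitor of 2-oxoglutarate at many dioxygenases, among them the Tet enzymes and histone lysine demethylases. Tet2 oxidizes 5-methylcytosine and so starts DNA demethylation, and mutations of IDH2 and TET2 rarely occur together in human acute myeloid leukaemia. The series title speaks of distinct and opposite effects of such mutations, and the direct comparison asks where the chromatin of one mutant differs from that of the other.

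A peak's level is given as CPM, its counts per 1e6 counts of the library, with library sizes scaled by the TMM method of edgeR. CPM is per peak and not per length. Fold changes are log2 values, Idh2 R172K minus Tet2 knockout, each with its standard error (SE). A peak was called at an adjusted p under 0.05 in edgeR's quasi-likelihood test with Benjamini-Hochberg adjustment over all 123908 tested peaks, 2-sided. All adjusted p values below come from it. A gene name marks the gene that holds the peak centre or, failing that, the nearest protein-coding gene, and does not say that the peak acts on it. In sorted cells in bulk, fewer cells of a type and less open chromatin per cell cannot be told apart.

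Among promoter peaks with a matched promoter sequence, no overlap between the groups and at least 5 CPM in a group, the largest differences toward Idh2 R172K belonged to Lilr4b, a leukocyte immunoglobulin-like receptor, Mrgpra9, a Mas-related G-protein-coupled receptor, and Adamts9, a secreted metalloproteinase. Their RefSeq promoter windows (GRCm38.p6, the assembly behind mm10, from 250 bases before to 50 bases after the start site) are shown to let the CpG content be seen, with each CG in capitals. The Lilr4b window is chr10:51480362-51480661 on the plus strand, that of Mrgpra9 chr7:47252830-47253129 on the minus strand and that of Adamts9 chr6:92943485-92943784 on the minus strand.
Lilr4b: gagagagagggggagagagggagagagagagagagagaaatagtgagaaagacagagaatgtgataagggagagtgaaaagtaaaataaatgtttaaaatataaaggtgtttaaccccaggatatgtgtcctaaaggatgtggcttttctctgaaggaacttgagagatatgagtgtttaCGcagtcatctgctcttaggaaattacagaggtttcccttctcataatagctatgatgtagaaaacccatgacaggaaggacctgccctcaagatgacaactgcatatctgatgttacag
Mrgpra9: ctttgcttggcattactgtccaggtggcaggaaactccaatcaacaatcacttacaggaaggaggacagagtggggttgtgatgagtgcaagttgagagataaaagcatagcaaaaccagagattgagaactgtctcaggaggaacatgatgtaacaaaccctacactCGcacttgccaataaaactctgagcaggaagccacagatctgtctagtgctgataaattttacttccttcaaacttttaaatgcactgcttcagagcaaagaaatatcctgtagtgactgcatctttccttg
Adamts9: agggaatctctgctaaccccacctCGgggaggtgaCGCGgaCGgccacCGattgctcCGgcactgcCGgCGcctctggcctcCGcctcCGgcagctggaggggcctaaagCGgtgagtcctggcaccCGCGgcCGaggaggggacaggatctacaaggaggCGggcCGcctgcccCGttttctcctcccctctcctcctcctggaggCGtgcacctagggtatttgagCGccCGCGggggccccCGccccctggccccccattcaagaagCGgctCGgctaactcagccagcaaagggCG

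The Lilr4b and Mrgpra9 windows hold 1 CG each, and the Adamts9 window holds 25. Over the Lilr4b window (peak chr10:51480160-51481004) the Idh2 R172K libraries had 8.5, 10.6, 8.95 and 9.57 CPM and the Tet2 knockout libraries 2.8, 3.7, 2.36 and 3.04 CPM, a log2 fold change of 1.65 (SE 0.14, adjusted p = 6.36e-13). At Mrgpra9 (peak chr7:47252447-47253451) the means were 12 ± 0.387 and 3.86 ± 0.871 CPM (SD, n = 4 libraries each), and at Adamts9 (peak chr6:92943034-92943861) 22.3 ± 3.44 and 9.21 ± 0.624 CPM. All Idh2 R172K libraries lay above all Tet2 knockout libraries at the 3 peaks, and the WT means of 3.04, 3.92 and 7.36 CPM lay near the Tet2 knockout.

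By the same rule, the largest differences toward Tet2 knockout belonged to Adgb, an androglobin expressed in testis, Noxa1, an activator subunit of NADPH oxidase, and Prkag2, a regulatory subunit of AMP-activated protein kinase. These windows are chr10:10472350-10472649, chr2:25095156-25095455 and chr5:24995704-24996003, all on the minus strand, again with CG in capitals.
Adgb: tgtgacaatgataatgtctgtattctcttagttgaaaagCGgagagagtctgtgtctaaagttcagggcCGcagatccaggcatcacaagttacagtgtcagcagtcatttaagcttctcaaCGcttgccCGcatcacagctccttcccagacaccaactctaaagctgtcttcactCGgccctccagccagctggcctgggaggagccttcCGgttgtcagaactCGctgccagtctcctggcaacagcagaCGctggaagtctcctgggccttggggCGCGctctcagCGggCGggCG
Noxa1: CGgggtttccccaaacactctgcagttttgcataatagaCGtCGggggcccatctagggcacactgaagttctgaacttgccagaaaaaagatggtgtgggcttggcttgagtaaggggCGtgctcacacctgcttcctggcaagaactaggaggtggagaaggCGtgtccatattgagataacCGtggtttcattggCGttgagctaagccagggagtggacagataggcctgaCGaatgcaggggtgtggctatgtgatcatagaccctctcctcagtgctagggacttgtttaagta
Prkag2: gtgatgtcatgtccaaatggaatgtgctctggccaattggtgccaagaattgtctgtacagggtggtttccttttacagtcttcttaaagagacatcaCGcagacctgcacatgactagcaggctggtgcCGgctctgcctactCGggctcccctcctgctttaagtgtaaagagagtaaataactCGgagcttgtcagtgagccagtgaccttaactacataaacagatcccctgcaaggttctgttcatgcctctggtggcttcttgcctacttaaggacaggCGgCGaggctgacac

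The Adgb window holds 13 CG, that of Noxa1 8 and that of Prkag2 6. At Adgb (peak chr10:10472137-10472678) the Idh2 R172K libraries had 0.808, 1.17, 0.739 and 1.18 CPM and the Tet2 knockout libraries 7.94, 9.21, 6.26 and 8.34 CPM, a log2 fold change of -3.10 (SE 0.16, adjusted p = 1.71e-19). Noxa1 (peak chr2:25094758-25095816) had 2.38 ± 0.562 against 15.4 ± 1.27 CPM (SD, n = 4 libraries each), and Prkag2 (peak chr5:24995142-24996190) a mean of 3.52 against 20.1 CPM. The groups did not overlap at any of the 3 peaks. These 6 windows were picked for the size of their difference, so the values describe them and test nothing about promoters at large.

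In units of 1e6 counts, library totals in peaks ran from 10.5 to 27.81 for Idh2 R172K and from 21 to 25.63 for Tet2 knockout, and the common biological coefficient of variation was 7.73%. On the first principal component of the 8 libraries, with 60.8% of the variance, the genotypes stood apart, at 101 to 120.1 and at -117.7 to -108.2. Replicate 2 of Idh2 R172K, the shallowest library, stood apart from the other 7 on the second component (10.8% of the variance). At 3 peaks of Xist, 2 libraries of each genotype had 4.34 to 4.58 CPM in sum (the Xist-low libraries) and the other 2 had 23.9 to 25.7 CPM (the Xist-high libraries). Of 7 markers of the LSK gate, Kit, Cd34, Flt3, Procr and Mecom had a peak at a promoter window. No peak lay at the windows of Cd3e, Cd3d, Cd8a, Cd79a, Ly6g, S100a9, Hbb-bt, Hba-a1 or Col3a1, and no level is given here for Ly6a, Cd4, Ms4a1, Slc4a1, Col1a1 or Cdh5.

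The summed level of the 5 gate markers ran from 180.3 to 205 CPM in Idh2 R172K and from 174.9 to 214.9 CPM in Tet2 knockout. The myeloid markers with a peak, Itgam and S100a8, summed to 6.5 to 8 CPM against 8.12 to 9.35 CPM, and the stromal markers with a peak, Cxcl12 and Lepr, to 5.46 to 6.72 CPM against 7.14 to 8.13 CPM. Both sums were thus low, and lower in every Idh2 R172K library than in any Tet2 knockout library, as were 20.3% of all tested peaks. Each sum holds only 2 peaks. Itgam (-0.27, adjusted p = 0.0227) and Lepr (-0.78, adjusted p = 0.00484) were called lower. S100a8 (-0.43, adjusted p = 0.285) and Cxcl12 (-0.23, adjusted p = 0.0832) were not called. The part of such cells in the differences below was not tested.

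Idh2 R172K and Tet2 knockout LSK cells differed at 54872 peaks, 44.3% of those tested. Of these, 24959 were higher in Idh2 R172K (20.1% of tested peaks) and 29913 were lower (24.1%). The lower peaks differed more, with a median absolute log2 fold change of 0.884 against 0.472 for the higher peaks. They were also weaker, with median levels of 1.321 CPM in Idh2 R172K and 2.614 CPM in Tet2 knockout. The higher peaks had 7.067 and 4.879 CPM, and the part of level in the medians was not tested. Beyond a 2-fold difference, 3106 peaks were higher (2.51%) and 12262 lower (9.9%). Scaling by library size alone gave 18186 higher and 34158 lower peaks, so that 34.7% of calls were higher instead of 45.5%; scaling by cyclic loess gave 26290 and 26523. In 20830 peaks (16.8%) the 4 libraries of Idh2 R172K all lay above the 4 of Tet2 knockout, and in 25210 (20.3%) all below.

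Promoter peaks leaned to the Idh2 R172K side and distal peaks to the Tet2 knockout side. Of 15572 peaks of the deposited promoter class, 32.5% were higher in Idh2 R172K and 14.2% lower, with a median log2 fold change of 0.112. Introns had 18.1% higher and 26.5% lower among 51772 peaks, and intergenic peaks 17.7% and 25.5% among 44624. Exons (22.7% and 22.2%) and transcription ends (21.6% and 21.3%) lay between. Promoters made up 12.6% of tested peaks, 20.3% of the higher and 7.38% of the lower peaks. With loess scaling, which removes a trend of fold change with level, promoters made up 11.49% of the higher and 9.969% of the lower peaks, so the excess of promoters among higher peaks was not seen there. Beyond 2-fold the promoter class had 116 higher and 704 lower peaks, so its lean to the higher side was one of small differences.

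With TMM scaling, the lean followed the level of a peak within every class. Tested peaks were divided by mean CPM into 5 bins of equal number. In the weakest bin 7.01% were higher and 27.5% lower, and in the strongest 40.4% were higher and 11.0% lower. Promoter peaks of the weakest bin had 6.13% higher and 26.4% lower, close to the intronic peaks of that bin (6.95% and 27.8%). The 9417 promoter peaks of the strongest bin had 44.7% higher and 4.48% lower, and the 6961 intronic peaks of that bin 36.6% and 16.1%. These shares by bin were not counted with loess scaling, which removes a trend of fold change with level. By distance, 32.2% were higher and 13.8% lower within 1 kb of a start site, and 16.1% and 29.2% at 50 to 100 kb.

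**Figure D1:**
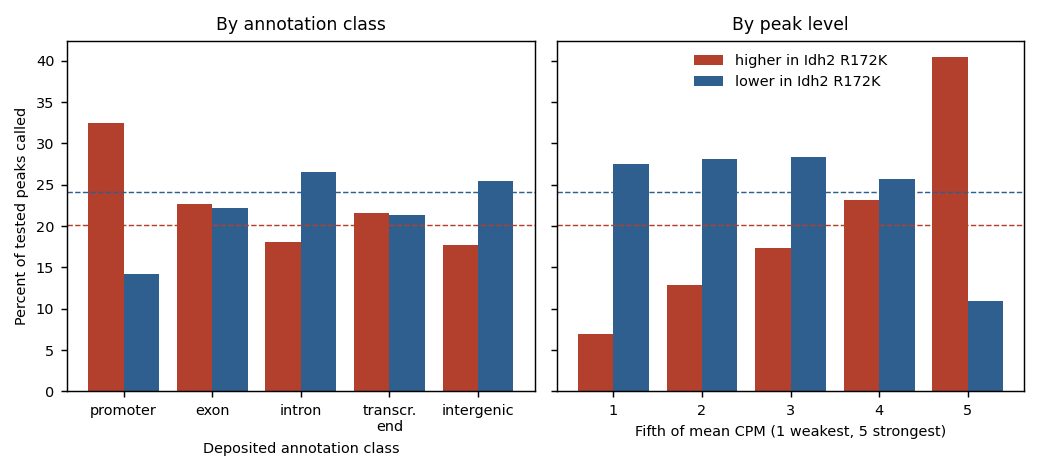
Percent of tested peaks called higher (red) or lower (blue) in Idh2 R172K than in Tet2 knockout, by deposited annotation class (left) and by bin of mean CPM from weakest to strongest (right). Dashed lines mark the percentages over all tested peaks, 20.1% higher and 24.1% lower; the higher share runs from 7.01% in the weakest bin to 40.4% in the strongest.

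**Figure D2:**
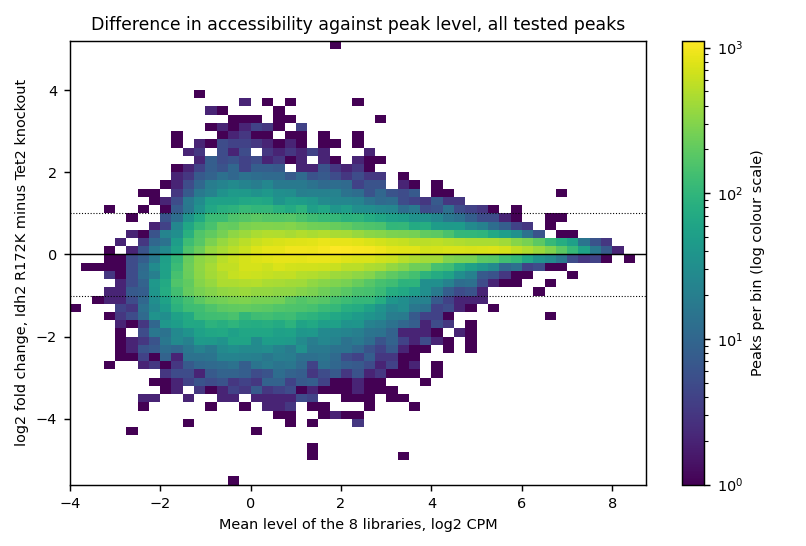
Number of tested peaks (colour, log scale) by mean log2 CPM of the 8 libraries (horizontal) and log2 fold change, Idh2 R172K minus Tet2 knockout (vertical). Dotted lines mark 2-fold; the cloud reaches further down than up at middle levels, with 12262 called peaks past 2-fold below and 3106 above, and narrows to small positive values at the strongest peaks.

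The share of all counts that fell in promoter-class peaks was 43.46, 43.33, 43.59 and 44.38% in the Idh2 R172K libraries and 42.2, 42.42, 41.13 and 41.47% in the Tet2 knockout libraries. The groups did not overlap, and the means of 43.69 ± 0.473% and 41.81 ± 0.607% (SD, n = 4 each) differed by 1.885 percentage points. An exact permutation test over the 8 libraries, 2-sided, gave p = 0.0286, the smallest that 4 against 4 libraries allow.

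Many genes held called peaks of both directions. Of 14191 genes with a called peak, 4786 had higher peaks only, 3457 lower peaks only and 5948 both. Among 2747 genes whose called promoter peaks were all higher in Idh2 R172K and that had other called peaks, those other peaks were all higher in 860, all lower in 590 and mixed in 1297. Among 1252 genes whose called promoter peaks were all lower, the other called peaks were all lower in 541 and all higher in 159.

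The targeted genes were compared next. The Tet2 promoter peak (chr3:133544011-133545353) had 53.8, 45.7, 54.2 and 51.9 CPM in Idh2 R172K and 52.2, 52.7, 48 and 53.4 CPM in Tet2 knockout. The groups overlapped, and the log2 fold change was 0.00 (SE 0.066, adjusted p = 0.973); only with loess scaling was the peak called lower, at -0.14 (adjusted p = 0.0376). With the deleted segment unnamed, open chromatin at this promoter does not check the label. Of 30 peaks named for Tet2, 5 were higher and 4 lower, and the one with the smallest p was a transcription end class peak 78334 bp away (chr3:133622912-133624028) with 30.6 ± 2.63 against 16 ± 0.672 CPM. WT had 17.5 CPM there. Of the 4 lower calls, that at chr3:133525369-133526742 (-0.31, adjusted p = 0.0348) was lost without replicate 1 or 4 of Idh2 R172K or without replicate 2 of Tet2 knockout (adjusted p = 0.0899 to 0.17), with loess, in DESeq2 and in the Xist-high libraries. The other 3 were each lost in the Xist-low or the Xist-high libraries alone (adjusted p = 0.165 to 0.248), as was 1 of the higher calls (adjusted p = 0.18).

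Idh2 was more open in the mice that carry the mutant allele. In its intronic peak (chr7:80114288-80115707) the Idh2 R172K libraries had 89.7, 85.3, 88.8 and 87.4 CPM and the Tet2 knockout libraries 53.3, 52, 54.8 and 51.4 CPM. The groups were far apart, with a log2 fold change of 0.73 (SE 0.056, adjusted p = 4.16e-14), while WT, Idh1 R132H and Idh2 R140Q had means of 50.2, 50.7 and 51.8 CPM. All 8 peaks named for Idh2 were higher, by 0.53 to 1.63 on the log2 scale. The weakest of them (chr7:80098545-80098786, under 1 CPM in every library) missed the threshold in the Xist-low libraries alone, in the Xist-high libraries alone, without replicate 3 of Idh2 R172K and without replicate 3 of Tet2 knockout. Within 1 Mb of Idh2, 89 of 284 peaks were higher (31.3%) and 49 lower (17.3%). The shares were 32.6% and 16.0% within 1 Mb of Vav1, and 17.6% and 14.7% within 1 Mb of Tet2. Within 10 Mb of Idh2, 220 of 1012 were higher (21.7%) and 233 lower (23.0%), near the 20.1% and 24.1% of all tested peaks. Idh1, the cytosolic relative, had 81.9, 81.1, 81.5 and 88.2 CPM against 76.2, 73.8, 63.9 and 64.2 CPM in its intronic peak (chr1:65178060-65179449), a log2 fold change of 0.26 (SE 0.071, adjusted p = 0.00279). The 2 sets did not overlap, but the call was lost with loess scaling (0.10, adjusted p = 0.114) and in the Xist-low libraries alone (0.12, adjusted p = 0.113).

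The difference with the smallest p among the named higher peaks was at Vav1, a guanine nucleotide exchange factor of blood cells whose promoter drives the Cre transgene. Its intronic peak (chr17:57290002-57291273) had 176.3, 183.2, 169 and 179.3 CPM in Idh2 R172K and 67.3, 70.8, 61.4 and 60.9 CPM in Tet2 knockout, a log2 fold change of 1.44 (SE 0.059, adjusted p = 1.45e-22). WT, Idh1 R132H and Idh2 R140Q, all of which carry Vav-Cre, had means of 164.7, 159.8 and 159.1 CPM. The Vav1 promoter peak (chr17:57278748-57279507) had 34.4, 32.6, 36.3 and 38 CPM against 24.9, 24.2, 21.4 and 22.7 CPM, and 5 of 12 peaks named for Vav1 were higher and 2 lower. Beside the same WT libraries, Idh2 R172K differed by 0.10 (adjusted p = 0.126) and Tet2 knockout by -1.34 (adjusted p = 2.45e-20). For the low level in Tet2 knockout, the loss of Tet2 and a lack of Vav-Cre, which its label does not name, cannot be told apart.

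**Figure D3:**
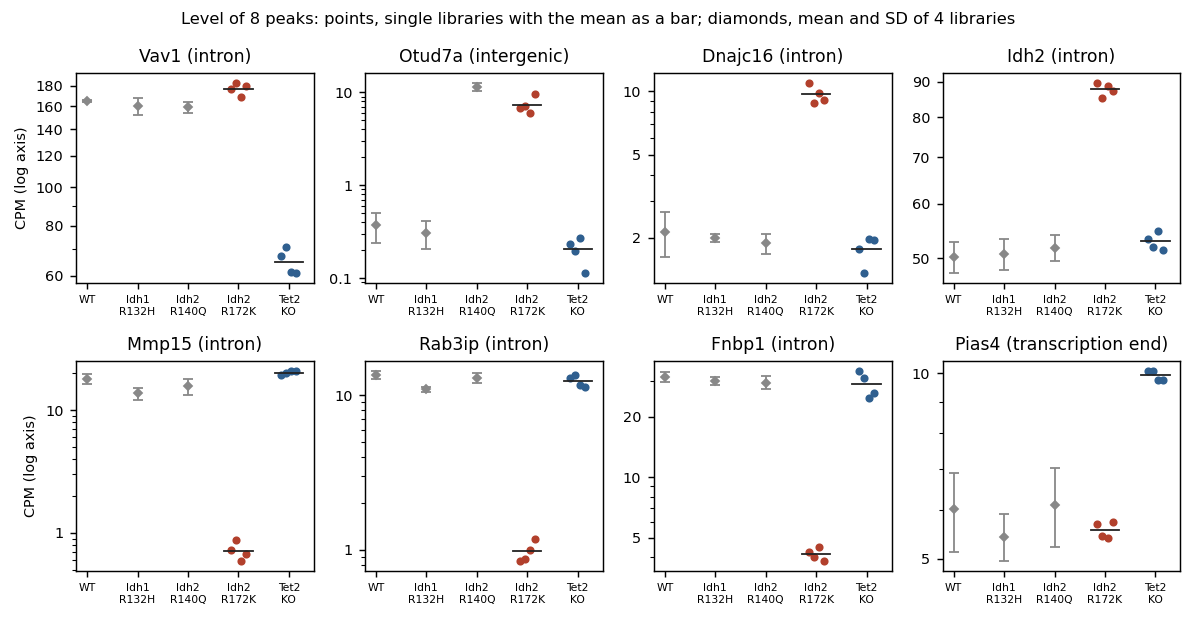
Level in CPM (log axis) of 8 peaks named in the text, by genotype. Points are the single libraries of Idh2 R172K (red) and Tet2 knockout (blue) with the mean as a bar, and grey diamonds are the mean and SD of 4 libraries of each other genotype; at Dnajc16, Idh2, Mmp15, Rab3ip and Fnbp1 the other genotypes lie with Tet2 knockout, at Vav1 and Pias4 with Idh2 R172K, and at Otud7a only Idh2 R140Q shares the high level.

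Among the 10 genes named by p on the higher side, 9 besides Vav1 stood at about WT level in Tet2 knockout. The peak near Otud7a, a deubiquitinase gene (chr7:63802730-63803300, 36783 bp from the gene), had 6.81, 7.11, 6.06 and 9.52 CPM in Idh2 R172K and 0.233, 0.195, 0.27 and 0.113 CPM in Tet2 knockout. The groups were separate, with a log2 fold change of 5.14 (SE 0.22, adjusted p = 8.66e-22), the largest of all named peaks. WT and Idh1 R132H had 0.37 and 0.309 CPM, and Idh2 R140Q 11.5 CPM. The intronic peak of Dnajc16, a DnaJ-domain protein gene (chr4:141771600-141772633), had 11, 8.77, 9.83 and 9.12 CPM against 1.77, 1.36, 1.97 and 1.95 CPM, a log2 fold change of 2.45 (SE 0.13, adjusted p = 8.65e-19). A peak at Ptpre, a receptor-type tyrosine phosphatase (chr7:135593799-135594337), had 24.9 ± 3.12 against 7.93 ± 0.616 CPM, and one beside Ap3b1, a subunit of the AP-3 adaptor that sorts cargo to lysosomes (chr13:94354492-94354999), 29.5 ± 2.48 against 10.7 ± 0.457 CPM (SD, n = 4 each).

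The promoter-class peak of Por, the reductase that feeds electrons to cytochromes P450 (chr5:135715598-135715895), had 9.42, 9.16, 9.57 and 11 CPM against 1.45, 2.34, 2.2 and 1.69 CPM, and a log2 fold change of 2.35 (SE 0.14). The deposited distance of this peak to the nearest start site was -16727 bp, so its class does not place it at a start site. The remaining genes were Cst10, a cystatin (2.94), Nuf2, a kinetochore protein (3.65), Cdrt4 (2.52) and Sgcz, a sarcoglycan (2.21). The peaks named for Nuf2 and Cst10 lay 473180 and 121757 bp from the gene. None of the 10 peaks had overlapping groups, as the rule that named them required, and this separation is no test.

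Among the named lower peaks the smallest p was at Mmp15, a membrane-bound matrix metalloproteinase. Its intronic peak (chr8:95369425-95370383) had 0.731, 0.877, 0.591 and 0.676 CPM in Idh2 R172K and 19.2, 20.3, 21 and 20.8 CPM in Tet2 knockout, a log2 fold change of -4.87 (SE 0.14, adjusted p = 5.2e-27). The peak was nearly closed in all Idh2 R172K libraries and open in all others, with 18.1, 13.7 and 15.7 CPM in WT, Idh1 R132H and Idh2 R140Q. In the intron of Rab3ip, an activator of Rab8 in vesicle transport (chr10:116919410-116920230), the values were 0.846, 0.877, 0.998 and 1.18 CPM against 12.9, 13.5, 11.7 and 11.3 CPM. That is a log2 fold change of -3.65 (SE 0.13, adjusted p = 8.57e-25). Atp10a, a phospholipid flippase (chr7:58836741-58837718), had 1.95 ± 0.346 against 23.4 ± 3.42 CPM, and Fnbp1, a membrane-bending protein of endocytosis (chr2:31082607-31083215), 4.14 ± 0.296 against 29 ± 4.32 CPM.

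Lmln, a metallopeptidase, was the promoter-class peak among the 10 (chr16:33123270-33124218), with 1.65, 1.27, 1.77 and 1.86 CPM against 11.8, 11.7, 13.4 and 14.5 CPM. Its log2 fold change was -2.93 (SE 0.12), and its deposited distance to the nearest start site was -15143 bp. The others were Msl3l2 (-3.03), D6Ertd527e (-2.94), Plk2, a polo-like kinase induced by p53 (-2.63), Msrb2, a methionine sulfoxide reductase (-2.16) and Tead3, a transcription factor of the Hippo pathway (-2.14). WT, Idh1 R132H and Idh2 R140Q had at least 10.9 CPM at each of the 10 lower peaks, against at most 5.21 CPM in the mean of Idh2 R172K.

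The largest fold changes among promoter-class peaks were lower ones. A promoter-class peak of Atf7ip, a partner of the histone methyltransferase Setdb1 (chr6:136531825-136533048), had 0.346, 0.877, 0.37 and 0.676 CPM against 9.1, 8.28, 7.88 and 10.8 CPM, a log2 fold change of -4.17 (SE 0.18). Another of Plec, a cytoskeletal linker (chr15:76229267-76229774), had 0.624 ± 0.18 against 5.91 ± 0.543 CPM. On the higher side the promoter-class peaks named by size were those of Por and of Chst15, a sulfotransferase (chr7:132278434-132279234), with 8.58, 5.55, 7.95 and 10.6 CPM against 2.43, 2.09, 2.32 and 2.37 CPM. At the transcription end of Ikbkb, a kinase that activates NF-kB (chr8:22701218-22701911), the means were 2.74 ± 0.884 against 19.6 ± 2.64 CPM. Groups were separate at each. The promoter class does not place these peaks at a start site. Their deposited distances to the nearest start site were 13634 bp for Atf7ip, 4203 bp for Plec and 37880 bp for Chst15.

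Some genes held many peaks that differed in the same direction. Tshz2, a teashirt-family zinc finger gene, had 41 lower and 0 higher of 45 peaks. Nav2, a neuron navigator, had 46 lower and 2 higher of 78, and Prdm16, a histone methyltransferase family member needed by fetal and adult blood stem cells, 33 lower and 1 higher of 41. On the higher side Clec16a, a regulator of mitophagy, had 18 higher and 2 lower of 32. The peak of Prdm16 with the smallest p (chr4:154584952-154585602) had 0.269, 0.195, 0.444 and 0.338 CPM in Idh2 R172K and 3.5, 3.12, 4.02 and 3.38 CPM in Tet2 knockout, a log2 fold change of -3.38 (SE 0.22, adjusted p = 2.02e-16). The 2 genes with the most higher peaks, Zfp386 (63 of 124) and Adam6a (30 of 55), are named by distance, and their peaks lie over the immunoglobulin heavy chain locus.

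That locus was more open in Idh2 R172K. At Igh (chr12:113258768-116009954), where V, D and J segments are joined in B cell precursors, 93 of 195 peaks were higher and 16 lower. The summed level was 895.4, 940.5, 886.3 and 946.8 CPM in Idh2 R172K and 712, 714.6, 712.4 and 695.2 CPM in Tet2 knockout, with no overlap, and 702.5 to 746.7 CPM in WT. At Tcra (chr14:52427967-54224198) 29 of 125 peaks were higher (23.2%, near the 20.1% of all tested peaks) and 12 lower (9.6%), and the sums were 409.7, 383.6, 379.4 and 376.2 CPM against 344.5, 342.9, 348 and 351.7 CPM, with no overlap. At the other receptor loci the calls were 7 higher and 9 lower of 55 at Tcrb, 1 and 2 of 13 at Igk, 0 and 2 of 10 at Tcrg, and 0 of 2 at Igl. Some V segments resemble each other closely, so how reads were shared among such segments is uncertain and was not tested.

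Some called peaks of like direction also lay side by side over long stretches. These stretches were chosen after their values were seen, so they are a description. Runs of 10 or more consecutive tested peaks called in the same direction were few. They numbered 8 on the higher side, with 112 of 24959 called peaks, and 54 on the lower side, with 727 of 29913. The median run was 1 peak long among the 17433 higher runs and also among the 19112 lower runs. The longest higher run had 36 peaks over 800.8 kb at the Mrgpr cluster (chr7:47204573-48005406), which encodes Mas-related receptors of sensory neurons. Its summed level was 251.6, 267.3, 249.6 and 264.8 CPM in Idh2 R172K and 103.2, 96.8, 127.4 and 108.8 CPM in Tet2 knockout, against 94.4 ± 9.68 CPM in WT (SD, n = 4). Of its peaks, 31 differed by more than 2-fold.

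The longest lower run had 39 peaks over 808.5 kb between Zfp64 and Tshz2 (chr2:169061319-169869850). It summed to 32.9, 40.7, 30.6 and 31.9 CPM in Idh2 R172K and 110.8, 116.9, 99.8 and 101.7 CPM in Tet2 knockout, with 128.5 ± 10.8 CPM in WT, and its median log2 fold change was -2.27. Other lower runs lay in Ptprm, a receptor tyrosine phosphatase (25 peaks, 53.6 ± 1.43 against 105 ± 6.01 CPM), and from Pid1 to Dner (21 peaks, 40 ± 2.13 against 66.4 ± 7.84 CPM, of which 16 were called with loess and 8 in the Xist-high libraries alone). They also lay from Pax8 to Cacna1b (20 peaks, 34.7 ± 0.879 against 71.2 ± 1.21 CPM) and from Lrig3 to Atp23 (20 peaks, 36.1 ± 4.77 against 80.6 ± 4.92 CPM). On the higher side, Hdac9, a class IIa histone deacetylase, had 11 peaks with 33.7 ± 2.21 against 17.2 ± 1.86 CPM. The run over Idh2 and Sema4b had 11 peaks with 209.1 ± 6.81 against 125.4 ± 2.82 CPM, while WT, Idh1 R132H and Idh2 R140Q had 126.1, 125.7 and 128.6 CPM.

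**Figure D4:**
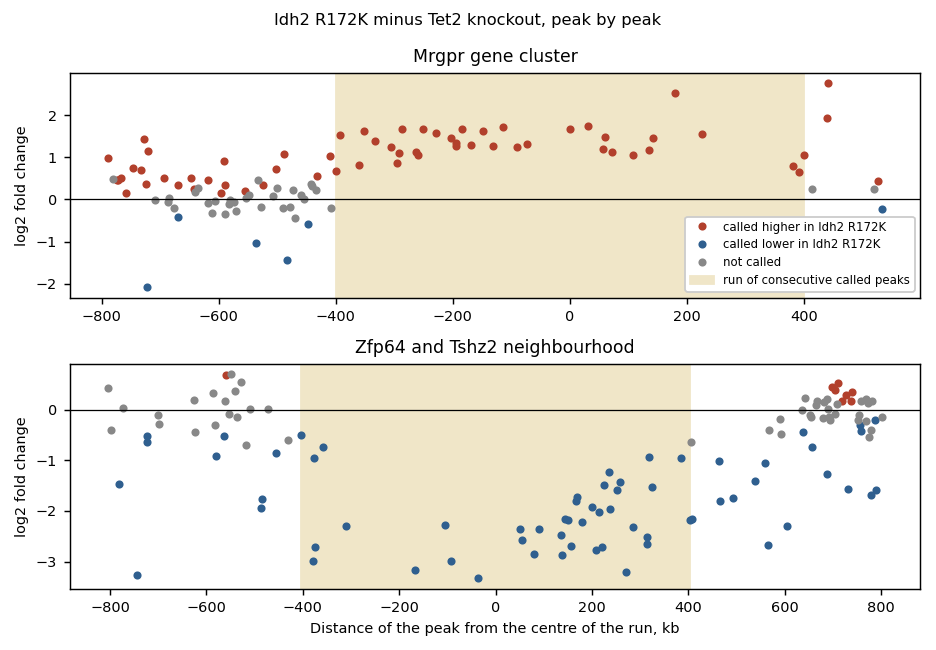
log2 fold change of each tested peak, Idh2 R172K minus Tet2 knockout, against distance in kb from the centre of the longest higher run (Mrgpr cluster, top) and the longest lower run (Zfp64 to Tshz2, bottom). Red and blue points are peaks called higher and lower, grey points are not called, and the shaded band is the run, with a median of 1.30 at the top and -2.27 at the bottom.

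The 22 gene lists set out how named pathways and cell types shared in the difference. Over all tested peaks 20.1% were higher and 24.1% lower with a median log2 fold change of -0.011, and each list is read beside that. The first group holds stem cell regulators. Of 656 peaks of 28 such genes, 131 were higher and 180 lower (median -0.05, but 0.01 with loess scaling). Genes went different ways: Hlf, a stem cell factor, had 14 lower and 1 higher of 25 peaks, Erg 14 lower and 6 higher of 43, and Kit, the stem cell factor receptor, 17 lower and 9 higher of 46. Mecom, which encodes the stem cell factor Evi1, had 13 higher and 14 lower of 52, and Runx1 17 higher and 22 lower of 99. Cd34 leaned to the higher side, with 7 higher and 1 lower of 20 peaks. So did Gfi1b with 5 higher and 2 lower of 8, and Tal1 with 3 higher and 0 lower of 6.

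Of the gate markers' promoter windows, that of Mecom differed most. The Mecom promoter peak (chr3:30012201-30013591) ran from 15 to 16.3 CPM in Idh2 R172K and from 7.45 to 10.3 CPM in Tet2 knockout, a log2 fold change of 0.78 (SE 0.0901, adjusted p = 1.91e-09). Cd34 was slightly higher (0.20, adjusted p = 0.0183) and Flt3 lower (-0.30, adjusted p = 0.0204), with overlapping groups at both. Kit (0.07, adjusted p = 0.412) and Procr (0.13, adjusted p = 0.339) did not pass the threshold. An intergenic peak 204900 bp from Angpt1, the ligand of Tie2 (chr15:42219392-42220142), had 0.846, 0.974, 0.998 and 0.619 CPM against 4.99, 6.58, 6.03 and 7.44 CPM, although 9 of 41 peaks of the gene were higher and 4 lower.

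HoxA genes and their partners leaned to the higher side, with 41 higher and 20 lower of 164 peaks and a median of 0.09, but 31 higher and 24 lower by library size alone (median 0.02). Calls at the distal and the proximal genes went different ways. Hoxa10, whose product promotes stem cell expansion, had 5 of 5 peaks higher (0.22 to 0.49), and Hoxa7 and Hoxa9 had 2 of 2 each. Hoxa3 had 2 lower and 1 higher of 6 peaks, and the 1 peak of Hoxa5 was lower (-1.71). The 11 consecutive peaks from Hoxa7 to Hoxa13 summed to 231.8, 205.1, 231.7 and 216.2 CPM in Idh2 R172K and 172.8, 170.9, 184.2 and 187 CPM in Tet2 knockout, with WT at 191.1 ± 8.8 CPM. These groups did not overlap, but only 2 of the 11 peaks were called in the Xist-high libraries alone. Meis1, a Hox cofactor, had 15 higher and 6 lower of 64 peaks, among them a peak 247928 bp away (chr11:18632307-18632693) with 4.24 ± 0.553 against 1.65 ± 0.137 CPM.

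**Figure D5:**
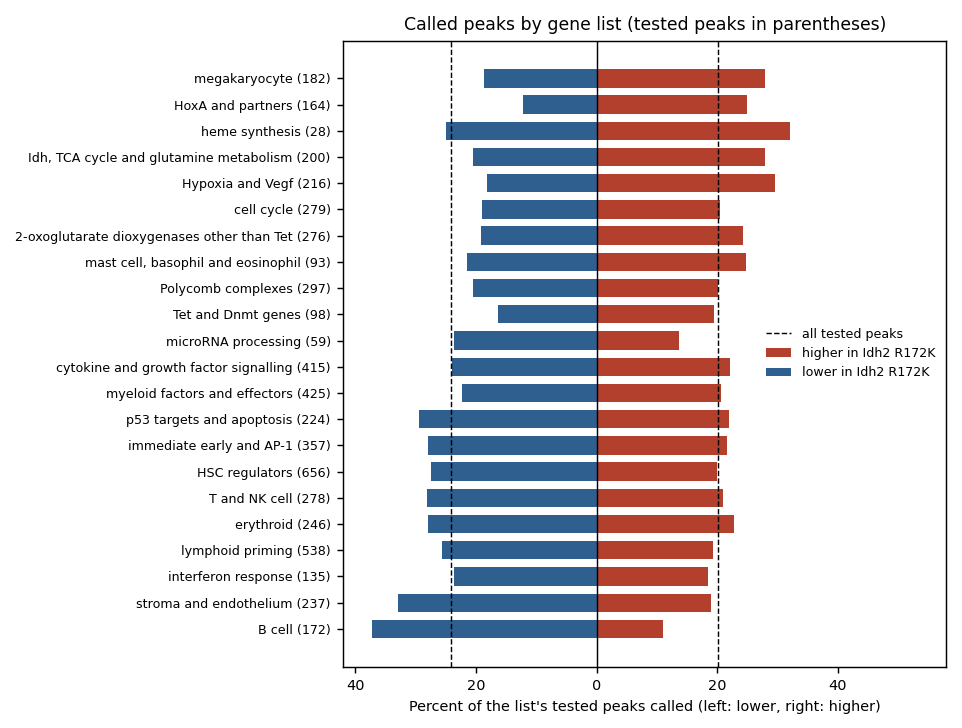
Percent of each gene list's tested peaks called higher (right, red) or lower (left, blue) in Idh2 R172K than in Tet2 knockout, ordered by the list's median log2 fold change. Dashed lines mark all tested peaks (20.1% and 24.1%); the B cell list has the largest lower share, 37.2%, and the smallest higher share, 11.0%.

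The megakaryocyte list had 51 higher and 34 lower of 182 peaks (median 0.11), but 41 higher and 40 lower by library size alone (median 0.03). Its summed level of 1499 to 1567 CPM in Idh2 R172K lay above the 1327 to 1412 CPM of Tet2 knockout. This gap was not particular to the list. The sums of the erythroid list (1799 to 1931 against 1690 to 1792 CPM) and the heme synthesis list (408.8 to 429.9 against 380.1 to 402.3 CPM) were separate in the same direction. So were those of several other lists, and the sums of the remaining lists overlapped. Gp9 and Itga2b, platelet receptor subunits, had 2 of 3 peaks higher each, whereas Vwf, von Willebrand factor, had 7 lower and 0 higher of 23. The promoter-class peak at Gp1ba, another platelet receptor subunit (chr11:70638447-70639473), had 32, 25.9, 29.8 and 31.9 CPM against 18.6, 16.7, 18.4 and 19.2 CPM, a log2 fold change of 0.72 (SE 0.076, adjusted p = 2.42e-10). The erythroid list had 56 higher and 69 lower of 246 peaks (median -0.06, but 0.02 with loess). The single peaks of Epor, the erythropoietin receptor, and Klf1, an erythroid factor, were higher (0.47 and 0.36), and Gata1 had 2 lower of 3. Ank1 had 13 lower and 0 higher of 15 peaks (median -1.01), and Sptb 7 lower and 1 higher of 17. Nfe2 went the other way, with 5 higher and 0 lower of 7. Of 28 peaks of heme synthesis genes, 9 were higher and 7 lower; the 7 included intronic peaks of Alas1, the first enzyme of the pathway (1.94 ± 0.229 against 7.41 ± 0.815 CPM), and Alad (0.376 ± 0.11 against 2.37 ± 0.344 CPM). By count Alas1 had 3 higher and 2 lower of 5 peaks, and Alad 3 higher and 1 lower of 4.

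Myeloid genes had 88 higher and 95 lower of 425 peaks (median -0.03, but 0.03 with loess). Spi1, which encodes the master factor PU.1, had 5 higher and 2 lower of 11, Cebpa 2 higher and 4 lower of 11, and Gfi1, a transcriptional repressor needed for granulopoiesis, 2 higher and 4 lower of 9. The promoter-class peak of Csf3r, the G-CSF receptor (chr4:126023654-126025172), had 32, 24.7, 29.6 and 26.8 CPM against 15, 15.8, 15.2 and 16.4 CPM, a log2 fold change of 0.87 (SE 0.081, adjusted p = 8.11e-12). An intronic peak of Zeb2, a zinc finger repressor (chr2:45099874-45101174), had 18.8 ± 0.731 against 9.49 ± 0.803 CPM. Genes of mast cells, basophils and eosinophils had 23 higher and 20 lower of 93 peaks (median 0.04, but -0.025 by library size alone). A peak 26243 bp from Cpa3, the mast cell carboxypeptidase (chr3:20189136-20189610), had 4.04, 3.6, 3.88 and 5.01 CPM against 0.934, 0.244, 0.425 and 0.751 CPM, and a peak at Ms4a2, a subunit of the IgE receptor, 18.8 ± 1.75 against 9.56 ± 0.238 CPM. Gata2 had 4 higher and 2 lower of 10 peaks. The largest difference among them was lower, at chr6:88165878-88166641 with 1.35 ± 0.315 against 6.47 ± 0.557 CPM and 11.6 CPM in WT.

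The B cell list stood furthest on the lower side, with 64 peaks lower (37.2%) and 19 higher (11.0%) and a median of -0.21, negative under all scalings. Ebf1, a factor that commits progenitors to the B lineage, had 19 lower and 0 higher of 28 peaks, and Pax5, which maintains that identity, 6 lower and 0 higher of 15. The intronic Pax5 peak with the smallest p (chr4:44624659-44625285) had 0.308, 0.292, 0.37 and 0.225 CPM in Idh2 R172K and 2.43, 3.12, 2.55 and 2.22 CPM in Tet2 knockout, a log2 fold change of -3.03 (SE 0.24, adjusted p = 1.53e-13). Cd24a, a surface antigen of B cell precursors, had 2.37 ± 0.482 against 9.09 ± 0.411 CPM in an exonic peak (chr10:43582560-43582868). A transcription end peak of Pou2af1, a B cell coactivator (chr9:51240046-51240426), went the other way with 4.12, 3.99, 4.29 and 4.05 CPM against 0.607, 1.41, 0.966 and 1.13 CPM. None of the 12 promoter-class peaks of the list was higher and 6 were lower, whereas the Igh locus itself was more open. The summed level of the list overlapped, at 750.7 to 787.7 CPM in Idh2 R172K and 783.5 to 855.2 CPM in Tet2 knockout.

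Lymphoid priming genes had 104 higher and 138 lower of 538 peaks (median -0.07). Flt3, a receptor of lymphoid-primed progenitors, had 7 lower and 1 higher of 18, and Dntt, which adds bases at V(D)J joints, 4 each way of 11. A promoter-class peak near Sox4, a factor of early lymphoid cells (chr13:28826101-28826765, 122486 bp from the gene), had 2.46, 4.19, 3.33 and 3.83 CPM against 11.5, 11.8, 10.4 and 12.5 CPM. T and NK cell genes had 58 higher and 78 lower of 278 peaks. Runx3 had 10 higher and 2 lower of 34. Lef1, a T lineage factor, had 15 lower and 0 higher of 25, among them a peak with 2.08 ± 0.362 against 7.35 ± 0.726 CPM. Tcf7, another, had 4 higher and 3 lower of 14, and its peak with the smallest p was lower (0.554 ± 0.086 against 2.5 ± 0.166 CPM). Stroma and endothelium genes had 45 higher and 78 lower of 237 peaks (median -0.12, but -0.02 with loess). Cxcl12, the niche chemokine, had 16 lower and 0 higher of 23. Vim went the other way with 5 of 5 higher, as did Pdgfrb with 6 higher and 1 lower of 8. The stroma list's summed level overlapped between the groups, at 1100 to 1130 CPM and 1074 to 1145 CPM.

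Among genes of the enzymes' own chemistry, the Idh, TCA cycle and glutamine list had 56 higher and 41 lower of 200 peaks (median 0.07, but -0.01 by library size alone). The 56 include the 8 peaks of Idh2 itself, all higher, and the 2 peaks of Idh1. Neither peak of D2hgdh, which breaks down D-2-hydroxyglutarate, passed the threshold (0.03 each). Lower peaks lay at Bcat1, a branched-chain aminotransferase (chr6:144916960-144917610, 3.3 ± 0.505 against 9.29 ± 1.08 CPM), and Psat1, an enzyme of serine synthesis (chr19:15882874-15883573, 1.46 ± 0.136 against 6.18 ± 0.475 CPM). Bcat1 had 11 lower and 1 higher of 24 peaks, and Psat1 7 lower and 6 higher of 24. The Tet and Dnmt genes had 19 higher and 16 lower of 98 peaks, and their median of 0.02 turned negative by library size alone and with loess. Tet1 had 6 higher and 3 lower of 17 peaks, Tet3 1 lower of 13, and Dnmt3a, a methyltransferase often mutated in leukaemia, 3 higher and 6 lower of 18. A peak beside Dnmt1, the maintenance methyltransferase (chr9:20961303-20962085), had 8.54, 9.25, 8.32 and 9.46 CPM against 5.23, 5.36, 5.29 and 5.45 CPM.

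The other 2-oxoglutarate dioxygenases had 67 higher and 53 lower of 276 peaks (median 0.05, but -0.02 by library size alone). Histone demethylases differed from each other: Kdm4b had 6 higher and 0 lower of 13, Kdm2b 6 higher and 2 lower of 19, and Kdm7a 7 lower and 0 higher of 13. The HIF prolyl hydroxylase Egln3 had 10 lower and 5 higher of 29, and its relative Egln1 3 lower of 6. An intronic peak of Fto, an RNA demethylase (chr8:91344455-91345427), had 1.58, 1.66, 1.52 and 1.58 CPM against 5.23, 4.09, 5.1 and 5.45 CPM, in a gene with 7 peaks called each way of 29. The hypoxia list had 64 higher and 39 lower of 216 peaks (median 0.06, but -0.01 by library size alone), and 17 of its 27 promoter-class peaks were higher and 1 lower, beside 32.5% and 14.2% of all promoter-class peaks. Vegfa had 8 higher and 2 lower of 22 peaks.

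Polycomb genes were split, with 60 higher and 61 lower of 297 peaks (median 0.04, but -0.03 by library size alone), and Cbx7, a subunit of PRC1, had 4 higher and 1 lower of 13, the lower being an intronic peak with 1.91 ± 0.243 against 9.37 ± 1.87 CPM. MicroRNA processing genes had 8 higher and 14 lower of 59 peaks with a median of 0.02 that turned negative by library size alone and with loess, and an intronic peak of Ago2, the slicer (chr15:73117746-73118454), had 11, 11.5, 11.2 and 11.1 CPM against 29.8, 29.6, 24.2 and 25.2 CPM. Cell cycle genes had 57 higher and 53 lower of 279 (median 0.06, but -0.02 by library size alone), and the cyclin gene Ccnd1 had 10 lower and 0 higher of 27, among them a peak with 1.06 ± 0.471 against 6.03 ± 0.356 CPM. Ccnd3, another cyclin gene, had 6 higher and 5 lower of 16, and its peak with the smallest p was lower (2.99 ± 0.627 against 12.6 ± 2.36 CPM). Genes of p53 targets and apoptosis had 49 higher and 66 lower of 224 (median -0.03, but 0.003 with loess). Cdkn1a, the p21 inhibitor, had 4 higher and 2 lower of 7 peaks, and a peak beside Mcl1, a survival factor of stem cells, 15.1 ± 1.34 against 7.4 ± 1.35 CPM, with 2 other peaks of Mcl1 lower.

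Signalling lists lay near the background. Cytokine and growth factor genes had 92 higher and 99 lower of 415 peaks with a median of 0.004, which turned negative by library size alone, and immediate early and AP-1 genes 77 and 100 of 357. Interferon response genes had 25 and 32 of 135. Fos had 10 lower and 3 higher of 26 peaks, Jun 6 each way of 36, and Myc 8 higher and 13 lower of 53. At Tnfaip3, an inhibitor of NF-kB (chr10:19043600-19044346), the values were 5.5, 5.55, 6.73 and 5.18 CPM against 15.5, 14.3, 14.3 and 14.3 CPM, a log2 fold change of -1.33 (SE 0.091, adjusted p = 1.15e-15). A peak at Btg2, an antiproliferative early gene (chr1:134063324-134063881), had 2.7 ± 0.509 against 9.81 ± 0.824 CPM, in a gene with 2 peaks called each way of 8.

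The WT, Idh1 R132H and Idh2 R140Q libraries took no part in the contrast, and their levels show on which side the difference lay. On a log2 scale with 0.1 CPM added, WT was nearer Tet2 knockout at 94.3% of the higher and 94.3% of the lower peaks, Idh1 R132H at 91.0% and 90.9% and Idh2 R140Q at 94.4% and 94.6%. At the higher peaks the median log2 fold change beside WT was 0.483 for Idh2 R172K and 0.027 for Tet2 knockout, and at the lower peaks -0.95 and -0.056. These values share the WT libraries and describe peaks picked by the direct contrast.

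At 1173 called peaks, all 3 other genotypes were nearer Idh2 R172K than Tet2 knockout. These were 515 higher peaks, 2.06% of all the higher, and 658 lower peaks, 2.2% of all the lower. Vav1 led these by p. The promoter-class peak of Tgfbr1, the type I receptor of TGF-beta (chr4:47352735-47353881), had 139, 139.5, 136.2 and 156.9 CPM in Idh2 R172K and 86.1, 87.7, 75.3 and 78.8 CPM in Tet2 knockout. Its log2 fold change was 0.80 (SE 0.067, adjusted p = 3.59e-13), and WT, Idh1 R132H and Idh2 R140Q had 115.7, 123 and 122.5 CPM. Idh2 R172K also lay above WT there (0.30, adjusted p = 0.000173), so WT stood between the mutants. Arhgef4, which encodes an exchange factor of small GTPases, had an intronic peak (chr1:34677578-34679052) with 12.2 ± 1.39 against 5.03 ± 0.64 CPM, with 11.8 to 12.9 CPM in the other genotypes. Pias4, a SUMO ligase, was more open in the Tet2 knockout libraries (chr10:81161948-81162700), with 5.69, 5.45, 5.4 and 5.74 CPM against 10.1, 10.1, 9.77 and 9.77 CPM and 5.43 to 6.12 CPM elsewhere. A peak 103801 bp from Zmiz1, a coactivator (chr14:25353812-25354336), had 0.868 ± 0.0698 against 3.08 ± 0.664 CPM. These peaks were picked after their values were seen. As at Vav1, the loss of Tet2 and a lack of Vav-Cre cannot be told apart at them.

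Promoters of the lower peaks held fewer CpG than those of the higher peaks, except among the strongest. A RefSeq promoter window covered by at least 150 bases was found for 8677 of 15572 promoter-class peaks (55.7%). The windows of higher peaks had a median of 7.33 CpG per 100 bases, those of lower peaks 3.67 and those of uncalled peaks 7.33. Lower promoter peaks were also weaker, and among peaks below the median level the medians were 6.0, 3.67 and 5.67. Above the median level they were 8.0, 10.33 and 9.0, with 33 lower windows there. Of the windows with fewest CpG (0 to 3.67 per 100 bases), 29.2% were higher and 22.0% lower, against 45.8% and 4.31% at 6.33 to 8.0 per 100 bases, with median levels of 9.644 and 34.15 CPM in Tet2 knockout. At the windows with most CpG (11.0 to 22.33 per 100 bases) 31.6% were higher and 6.09% lower.

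Short sequence motifs were counted in the same windows on both strands; no motif contains another, and a match is no proof of a bound site. The ETS letters AGGAAGT occurred in 7.9% of the windows of higher, 15.8% of lower and 10.3% of uncalled peaks, and in 9.35% of all 32851 promoter windows. The RUNX letters TGTGGTT occurred in 3.44, 7.01 and 3.74% (5.27% of all windows) and the AP-1 letters TGANTCA in 4.16, 8.03 and 4.51% (7.81% of all windows). Below the median level the ETS shares were 9.66, 16.2 and 11.9% and the AP-1 shares 6.6, 8.24 and 5.55%. Above it the ETS shares were 6.86, 6.06 and 8.49%, so the larger share at lower peaks was not seen among strong promoters. The CRE letters TGACGTCA occurred in 2.58, 1.66 and 4.0% (1.79% of all windows), and the CTCF core letters AGGGGGC in 18.4, 13.5 and 17.0% (10.6% of all windows). Of the 6 windows printed above, that of Mrgpra9 holds the ETS letters and that of Adamts9 the CTCF core letters, and none holds the RUNX, AP-1 or CRE letters.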

How the data were processed

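The authors deposited a table of read counts per peak for 20 ATAC-seq libraries, with a peak annotation; the counts are raw whole numbers. The submitters' processing notes name Trim Galore, BWA, Picard, SAMtools, MACS2, featureCounts and the build mm10. Their order and settings, the transposase shift, and whether reads or fragments were counted, have no source here. Peaks share 1 set across libraries, so the counts are comparable between them.

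Counts were fitted with edgeR 4.0.16 in R 4.3.3 (TMM, filterByExpr, robust quasi-likelihood fit over all 20 libraries), and 1435 of 125343 peaks were left out as too low. Each pool of 2 mice is a biological replicate in the study's design. The single share was tested in scipy 1.17.1. The contrast, class summaries, gene lists and named peaks follow a rule: by p with separate groups, by size within each class, up to 3 genes per list, every peak of Idh2, Idh1, Vav1 and Tet2, and genes with many peaks in the same direction. Gene names come from RefSeq coordinates (GRCm38.p6). The members and lists were chosen with earlier results of these data known. The planned motif count around peak centres was replaced by RefSeq promoter windows, because no genome was used here. The fit was tested on simulated data. Other scalings, DESeq2 1.42.0, no filter, the 8 libraries alone, a replicate block, the Xist sets and leaving out each library were tried. Some genes are not reported here.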

Additional observations from a re-analysis of the deposited data

Results flagged for a closer look

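In a group of 4 libraries, a value was picked out when its gap to the nearest of the others, divided by the group's range, passed Dixon's critical value for 4 samples. Of 268 group values of named peaks, 18 were picked out, and chance picks out about 1 in 20 groups. They fell on replicates 1, 2, 3 and 4 of Idh2 R172K 2, 2, 0 and 5 times, and on those of Tet2 knockout 1, 3, 2 and 3 times.

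Replicate 4 of Idh2 R172K stood above the other 3 at Idh1 (88.2 CPM, others 81.1 to 81.9), Tgfbr1 (156.9 CPM, others 136.2 to 139.5), Pan3 (2.42 CPM, others 1.85 to 1.88) and a peak named for Tet2 (4.28 CPM, others 2.73 to 2.96). It stood below them at a peak named for Idh2 (8.62 CPM, others 10.7 to 11). Replicate 2 of Idh2 R172K stood above the others at Hoxa3 (1.07 CPM, others 0.296 to 0.385), and below them at another peak named for Tet2 (0.39 CPM, others 0.628 to 0.676). Replicate 1 of Idh2 R172K stood below the others at Cxcl12 (3.15 CPM, others 3.31 to 3.33) and at the peak named for Zfp386 (5.15 CPM, others 7.32 to 7.6).

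Replicate 2 of Tet2 knockout stood above the others at Dnmt3a (4.48 CPM, others 3.71 to 3.73) and Pfkfb3 (11.7 CPM, others 10 to 10.3) and below them at Sgcd (1.12 CPM, others 1.54 to 1.58). Replicate 4 of Tet2 knockout stood below the others at Tnfrsf10b (5.26 CPM, others 5.95 to 5.99), Fbxw5 (1.35 CPM, others 1.61 to 1.63) and Ddx58 (9.35 CPM, others 10.4). Replicate 3 of Tet2 knockout stood above the others at Plec (6.72 CPM, others 5.56 to 5.7) and below them at the weakest Idh2 peak (0.27 CPM, others 0.413 to 0.438), and replicate 1 above them at Tnfaip3 (15.5 CPM, others 14.3).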

How the results depend on the processing

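Called peaks numbered 47258 to 53056 with each library left out in turn, 35151 in the Xist-high libraries alone, with 18236 lower, and 42985 in the Xist-low libraries alone; these subsets hold fewer libraries. Promoters made up 20.88% of the higher peaks with DESeq2's size factors, 18.24% by library size, 11.49% with loess, 22.3% in DESeq2, 18.73% in the 8 libraries, 19.34% in the Xist-low and 26.18% in the Xist-high libraries, and 18.54 to 22.09% with a library left out. Among lower peaks the share was 7.902% by library size, 9.969% with loess, 8.076% and 8.642% in the Xist-low and Xist-high libraries, and 7.312 to 7.627% with a library left out. The cause of these moves was not tested. The promoter share of counts differed by 1.654 to 2.091 percentage points with a library left out, with an exact permutation p = 0.0571, the smallest that 3 against 4 libraries allow. Replicate numbers did not pair the samples (correlations -0.047 to 0.082 for equal numbers); a replicate block called 58584 peaks over 20 libraries and 52918 over 8, where promoters made up 17.54% of the higher peaks. The Tet2 promoter peak, at 0.00, turned to -0.066 by library size, -0.139 with loess, -0.005 in the 8 libraries, -0.009 with the block in 8 libraries, -0.037 in the Xist-high libraries and -0.03 to -0.001 without replicate 1, 3 or 4 of Idh2 R172K or replicate 3 of Tet2 knockout; over all libraries left out in turn it ran from -0.03 to 0.047. Of 2565 values of 135 named peaks, 2538 kept their direction and side of the threshold, 18 lost their call and 9, all of the Tet2 promoter, changed sign. Of 1026 counts for lists and runs, 995 stayed within 1.5 times; the B cell list had 36 lower peaks in the Xist-high libraries. The motif count within 250 bases of peak centres was not run. Peaks in the weakest bin, at 0.07 to 0.91 CPM, carry few counts, which limits them most.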
